A study of Mus musculus with 8 samples.

Results

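Plagl1, Cdkn1c and 8 other imprinted genes (H19, Igf2, Dlk1, Mest, Peg3, Ndn, Grb10 and Igf2r) were followed in mouse colonic epithelial cells given butyrate for up to 24 h. Their probe sets were those whose annotation names 1 of the 10 genes alone, which gave 23 of the 22690 probe sets on the array and covered 9 of the 10 genes. Genomic imprinting is the parent-of-origin marking of genes by DNA methylation and chromatin, so that a gene is expressed mainly from the maternal or the paternal copy. Plagl1 encodes a zinc finger transcription factor (also called ZAC1) that can arrest the cell cycle and that activates other imprinted genes, and Cdkn1c encodes the cyclin-dependent kinase inhibitor p57Kip2. The growth factor Igf2, its clearance receptor Igf2r, the adaptor Grb10 and the non-coding RNA H19 act on fetal growth, while Dlk1, Mest, Peg3 and Ndn are further imprinted genes that are strongly expressed in embryonic tissues and mostly silenced or lowered after birth. Plagl1, Igf2, Dlk1, Mest, Peg3 and Ndn are expressed from the paternal copy and Cdkn1c, H19, Igf2r and Grb10 from the maternal copy in most mouse tissues. The arrays do not tell the parental copies apart, so every value below is the sum over both.

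The arrays were of MCE301 cells, a mouse colonic epithelial line derived from animals that carry a temperature-sensitive large T-antigen of simian virus 40, a transgene that all groups share. The groups were cells with 2 mM sodium butyrate, an inhibitor of histone deacetylases, for 0, 6, 12 or 24 h, with 2 arrays at each of the 4 times and 8 in all. No arrays of untreated cells at 6, 12 or 24 h were analysed here, so butyrate and time in culture cannot be told apart. The labels do not tell whether both arrays of a time are of separate cultures, so the errors and p-values below may cover technical variation alone.

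H19 is named only on 1 probe set shared with Mir675, the microRNA that it hosts, so no value is given for it. A probe set was tested if its signal was above 144.7, the median of all signals, on at least 2 of the 8 arrays, and 14 of the 23 passed. These represented 7 genes: Plagl1, Cdkn1c, Igf2, Igf2r, Mest, Peg3 and Ndn. Dlk1 and Grb10 did not pass. Plagl1, Cdkn1c and Igf2 passed through 3 arrays each, all of them at 12 or 24 h, so a difference from 0 h was built into their passing. The genes were chosen by their signals over the 4 times in these same arrays, so their values are given as a description, without p-values. Where a change of 1 of these genes is said below to pass or to lose its call, this describes the fit. It lends the change no support.

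The cells carried epithelial RNA at every time. All 8 epithelial markers (Krt8, Krt18, Krt19, Epcam, Cdh1, Cldn3, Cldn4 and Cldn7) were above the median signal on every array, whereas of 8 intestinal markers only Cdx2, Krt20 and Car2 were, and Vil1, Cdx1, Lgals4, Fabp2 and Car1 were below it on every array. The summed intestinal signal was 16710 to 22370 at 24 h, against 6776 to 7152 at 0 h, a rise carried by Krt20. Krt20 was at 15290 ± 4050 at 24 h, against 1377 ± 364 at 0 h (log2 change 3.44, limma adjusted p = 5.03e-06). Cdx2 was lower, at 284.3 ± 0.141, against 484.8 ± 38 (-0.71, adjusted p = 0.0146). Car2 was at 3824 ± 88, against 4963 ± 127 (-0.37, adjusted p = 0.0575), and was not called. Mesenchymal cells express several of these imprinted genes, and all 8 mesenchymal markers were below the median on every array, with summed signals of 346.5 to 426.9 at 24 h and 285.9 to 412.1 at 0 h. The 7 muscle and fat markers on the array had summed signals of 485.7 to 557.2 at 24 h against 181.0 to 219.9 at 0 h, and the fatty acid-binding protein gene Fabp4 alone reached 158.4 ± 4.45 at 24 h, against 5.45 ± 2.62 at 0 h (SD, n = 2). Of the immune markers only Csf1r was above the median. Their summed signals were 377.2 to 451.9 at 24 h, against 735.8 to 1052 at 0 h, a fall carried by Csf1r. Csf1r was at 231.2 ± 34.2 at 24 h, against 733.7 ± 190 at 0 h. Ptprc, below the median on every array, went the other way, with 109.4 and 65.9 at 24 h, against 45.5 and 33.9 at 0 h. The part of these marker changes in the results below was not tested. In such bulk RNA, fewer expressing cells and less RNA per cell cannot be told apart.

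After 24 h with butyrate, 4 of the 7 tested genes were higher than at 0 h (Plagl1, Cdkn1c, Igf2 and Igf2r), 2 were lower (Peg3 and Ndn) and Mest did not pass. Passing means a Benjamini-Hochberg adjusted p under 0.05 in limma over 7340 genes, on log2(signal + 32). Of all genes tested, 48.1% passed at 24 h (24.6% higher and 23.5% lower). At 12 h the same 4 genes were higher and the same 2 lower, where 35.6% of all genes passed (18.1% higher and 17.5% lower). At 6 h Plagl1 was the only one of the 7 to pass, being higher, where 15.7% of all genes passed and 9.06% were higher. Since the genes were picked with these comparisons in view, nothing is read from their counts.

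Plagl1 was higher at every later time. Its probe set 1426208_x_at gave signals of 17.6 and 9.0 at 0 h, 70.9 and 43.1 at 6 h, 254.7 and 136.8 at 12 h, and 522.0 and 532.6 at 24 h. Each time lay above the one before it with no overlap between arrays. The mean signal was 527.3 ± 7.5 at 24 h, against 13.3 ± 6.08 at 0 h (SD, n = 2), a log2 change of 3.63 ± 0.25 (standard error of the fit). The log2 changes were 0.96 ± 0.25 at 6 h and 2.29 ± 0.25 at 12 h. Both 0 h signals lie below the 32 added before the logarithm, which shrinks the change: the ratio of the mean signals was 39.6, while the fold on the log2(signal + 32) scale was 12.4. Both depend on signals at the bottom of the scale, and no detection calls were used here. Over the alternatives tried, the log2 change at 24 h ran from 2.94 to 4.23.

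The rise of Plagl1 was still under way between 12 and 24 h. The log2 change was 1.32 ± 0.25 for 12 h against 6 h, where 4.17% of all genes passed and 2.03% were higher. It was 1.35 ± 0.25 for 24 h against 12 h, where 5.4% passed, 1.81% being higher and 3.58% lower. Both steps passed, and both lost the call without a filter on low values. The 12 h step also lost it in the fit of only the 4 arrays compared and when 6 h replicate 2 or 12 h replicate 1 was left out, and the 24 h step when 12 h replicate 2 or either 24 h array was. The 6 h rise was lost without either 0 h array, without 6 h replicate 1, without the filter and with 64 added in place of 32, when its log2 change was 0.64.

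The other Plagl1 probe set did not show this. Probe set 1450533_a_at gave signals of 2.0 to 12.2 over the 8 arrays, with a mean of 10.05 ± 3.04 at 24 h and 6.65 ± 0.354 at 0 h, and did not pass the filter. In the array maker's naming, the suffix _x_at marks a probe set with probes that may also match other transcripts, and _a_at one that matches several transcripts of a single gene. The result for Plagl1 therefore rests on 1 of 2 probe sets, and which transcripts each reads was not tested.

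Cdkn1c, the p57Kip2 inhibitor of cyclin-dependent kinases, rose at 12 and 24 h. Probe set 1417649_at gave signals of 30.8 and 81.8 at 0 h, 77.1 and 78.7 at 6 h, 146.4 and 133.9 at 12 h, and 389.0 and 276.8 at 24 h. The 0 and 6 h arrays overlapped, the 6 h pair lying between the 0 h arrays, and the 12 and 24 h arrays stood above both. The mean was 332.9 ± 79.3 at 24 h, against 56.3 ± 36.1 at 0 h, a log2 change of 2.09 ± 0.26. At 12 h the log2 change was 1.03 ± 0.26, and the call was lost without 0 h replicate 1 (log2 change 0.60), without 12 h replicate 1 and without the filter. The step from 12 to 24 h, 1.07 ± 0.26, passed but lost the call under 10 of 16 alternatives.

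The other inhibitors of the same family were not called at 24 h. The p21 gene Cdkn1a had signals of 3949 ± 385 at 24 h and 3797 ± 113 at 0 h, a log2 change of 0.05 ± 0.18 (adjusted p = 0.827). Its second probe set, at 0.35, was not called. At 6 h Cdkn1a was at 2644 ± 60.5, a log2 change of -0.52 ± 0.18 (limma adjusted p = 0.0767). That 6 h difference was called with trend and robust eBayes (adjusted p = 0.0429). The p27 gene Cdkn1b had 271.6 ± 21.6 at 24 h and 298.6 ± 5.94 at 0 h, a log2 change of -0.12 ± 0.16 (adjusted p = 0.543). The difference between these changes and that of Cdkn1c was not tested.

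**Figure D1:**
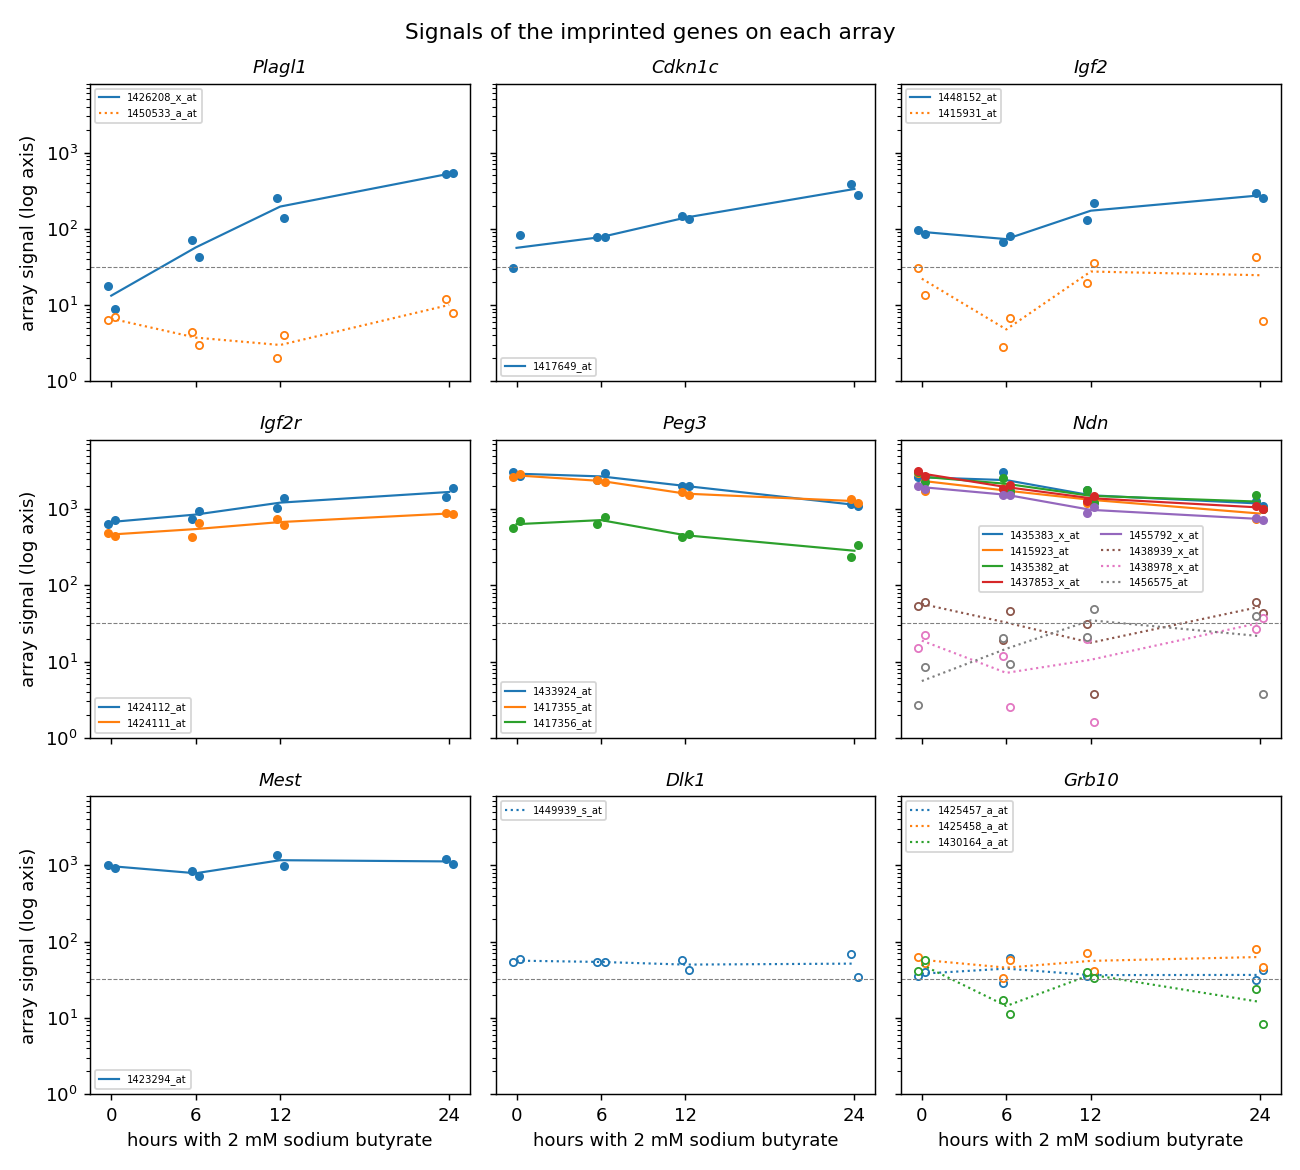
Array signal (log axis) against hours with 2 mM sodium butyrate for 9 imprinted genes. Each point is 1 array, lines join the means of 2 arrays, colours are probe sets, open points with dotted lines did not pass the filter, and the dashed line is the 32 added before taking log2. Plagl1 1426208_x_at has 522.0 and 532.6 at 24 h, against 17.6 and 9.0 at 0 h, Peg3 and Ndn decline, and all Grb10 and Dlk1 points stay below 80.

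Igf2, the fetal insulin-like growth factor, was higher at 12 and 24 h. Probe set 1448152_at gave signals of 96.5 and 85.8 at 0 h, 67.1 and 79.5 at 6 h, 129.1 and 216.6 at 12 h, and 297.4 and 251.1 at 24 h. Neighbouring times did not overlap, though the difference at 6 h did not pass (log2 change -0.23 ± 0.21). The mean was 274.2 ± 32.7 at 24 h, against 91.15 ± 7.57 at 0 h, a log2 change of 1.31 ± 0.21. The 12 h change of 0.70 ± 0.21 lost its call without either 0 h array, without the filter, and without 12 h replicate 2, which lowered it to 0.39. The step of 12 h against 6 h, 0.93 ± 0.21, also passed and lost its call under 11 of 16 alternatives. The second Igf2 probe set, 1415931_at, gave 2.8 to 43.1 over the arrays and did not pass the filter, so the result rests on 1 of 2 probe sets here too.

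Igf2r, the receptor that carries IGF2 to the lysosome for breakdown and also sorts lysosomal enzymes, was higher at 12 and 24 h. Probe set 1424112_at gave 628.5 and 721.8 at 0 h, 738.6 and 950.2 at 6 h, 1037.2 and 1383.4 at 12 h, and 1456.0 and 1883.0 at 24 h. No neighbouring times of this probe set overlapped, though only the 12 and 24 h differences from 0 h passed. The mean was 1670 ± 302 at 24 h, against 675.2 ± 66 at 0 h, a log2 change of 1.26 ± 0.21. The second probe set, 1424111_at, gave 487.2 and 438.1 at 0 h, 428.2 and 661.9 at 6 h, 728.7 and 617.6 at 12 h, and 894.7 and 850.2 at 24 h. Its 6 h arrays overlapped those of 0 and 12 h, and its log2 change at 24 h, 0.87 ± 0.21, also passed. At 12 h the first passed (0.80 ± 0.21) and the second did not (0.51 ± 0.21), and the first lost its call without 0 h replicate 1, without 12 h replicate 2 and without the filter.

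Peg3, a large zinc finger protein with roles in growth and maternal behaviour, declined in all 3 of its probe sets. Probe set 1433924_at gave 3069.7 and 2730.1 at 0 h, 2396.2 and 2946.7 at 6 h, 1997.4 and 2005.1 at 12 h, and 1166.0 and 1102.6 at 24 h. The 0 and 6 h arrays overlapped, and the 12 and 24 h arrays lay below them in order. The mean was 1134 ± 44.8 at 24 h, against 2900 ± 240 at 0 h, a log2 change of -1.33 ± 0.16. Probe sets 1417355_at and 1417356_at had log2 changes of -1.10 ± 0.16 and -1.08 ± 0.21, and all 3 passed at 24 h, where 44.4% of 11505 probe sets passed and 22.1% were lower. At 12 h 2 of the 3 passed, where 32.4% of probe sets did and 16.1% were lower, and the gene's change of -0.53 ± 0.16 lost its call without any 1 of the 0 or 12 h arrays and without the filter. The step from 12 to 24 h passed for 1433924_at (-0.80 ± 0.16), and lost its call without any 1 of the 12 or 24 h arrays or without the filter.

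Ndn, which encodes necdin, a growth suppressor of postmitotic neurons, fell in 5 probe sets together. Its representative 1435383_x_at gave 2603.8 and 2600.6 at 0 h, 3071.8 and 1702.1 at 6 h, 1762.9 and 1259.2 at 12 h, and 1255.3 and 1099.7 at 24 h. The 6 h arrays lay on either side of the 0 h pair, giving a 6 h mean of 2387 ± 969, and both 24 h arrays lay below both 12 h arrays. The mean was 1178 ± 110 at 24 h, against 2602 ± 2.26 at 0 h, a log2 change of -1.13 ± 0.26. Over the 5 probe sets the log2 change at 24 h ran from -1.45 to -1.08, and at 12 h from -1.06 to -0.77. All 5 passed at 24 h, where 44.4% of all tested probe sets passed and 22.1% were lower. All 5 also passed at 12 h, where 32.4% of all tested probe sets passed and 16.1% were lower. Some of these 12 h Ndn passes lay close to the 0.05 threshold. The 5 probe sets read 1 gene on the same arrays, so they are not 5 separate results. Probe set 1455792_x_at had 756.7 and 721.2 at 24 h, against 2029.7 and 1836.3 at 0 h. The 12 h call of the representative was lost without either 0 h array, without 12 h replicate 2 and without the filter. The other 3 Ndn probe sets gave 1.6 to 60.9 on all arrays and did not pass the filter.

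Mest, an alpha/beta-hydrolase family gene, did not pass at any time. Probe set 1423294_at gave 1021.5 and 931.1 at 0 h, 845.7 and 732.1 at 6 h, 1360.5 and 976.6 at 12 h, and 1197.8 and 1056.4 at 24 h. The 24 h arrays were above the 0 h arrays, by a log2 change of 0.20 ± 0.19, and the 6 h arrays below them, by -0.30 ± 0.19.

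Grb10 and Dlk1 were near the bottom of the scale throughout. The 3 probe sets of Grb10, an adaptor that restrains insulin and IGF1 receptor signalling, gave 8.4 to 79.1 over the 8 arrays. The single probe set of Dlk1, a membrane protein of the Notch ligand type, gave 34.9 to 68.2, with 68.2 and 34.9 at 24 h and 53.9 and 58.9 at 0 h. Dlk1 arrays of every later time overlapped those of 0 h. The Grb10 probe set 1430164_a_at gave 41.6 and 58.2 at 0 h, 17.4 and 11.3 at 6 h, 40.4 and 33.4 at 12 h, and 24.1 and 8.4 at 24 h, and its arrays at each later time lay below those of 0 h without overlap. At these signals a change of a few-fold may go unseen, so the genes are described as not above the filter.

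**Figure D2:**
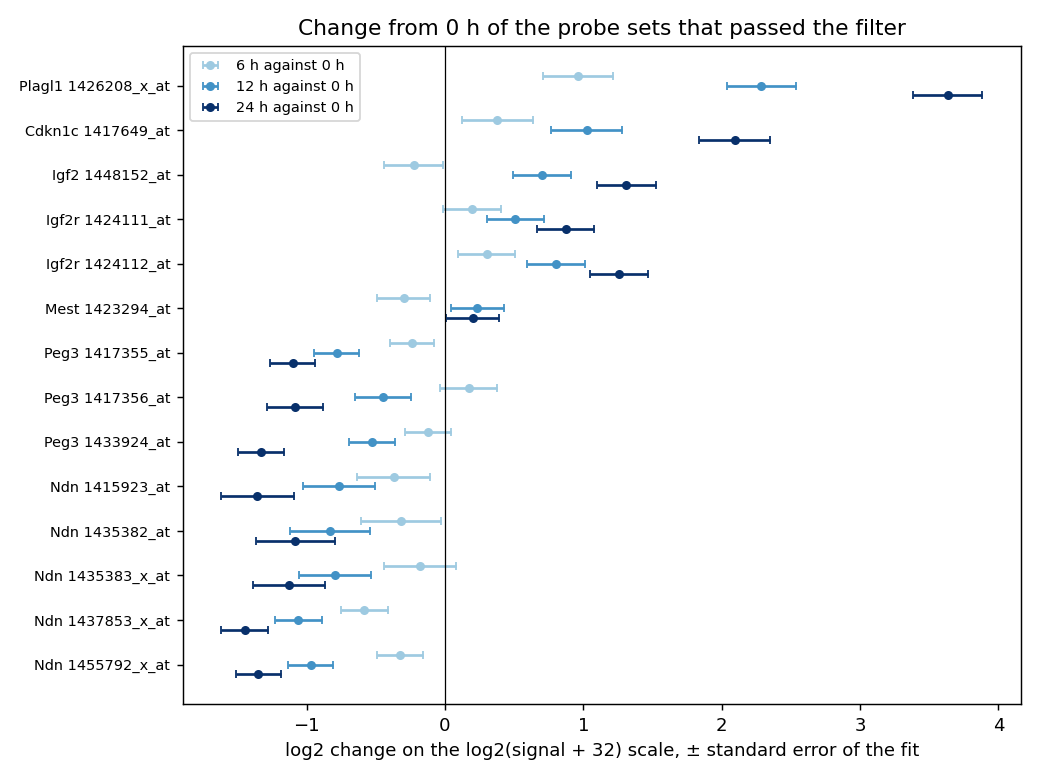
Log2 change from 0 h (log2(signal + 32) scale, bars are the standard error of the fit) at 6, 12 and 24 h for the 14 probe sets that passed the filter. Plagl1, Cdkn1c, Igf2 and Igf2r lie to the right of 0 at 12 and 24 h and the 3 Peg3 and 5 Ndn probe sets to the left, with the Ndn values at 24 h between -1.45 and -1.08.

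By parental copy, the tested maternally expressed genes Cdkn1c and Igf2r rose at 24 h. Of the 5 paternally expressed ones, Plagl1 and Igf2 rose, Peg3 and Ndn fell and Mest did not pass. Of all genes tested, 24.6% were higher and 23.5% lower at 24 h. The genes were chosen on these values, so no difference between the parental copies is read from them. Across the 8 arrays, log2 signals of Plagl1 and Cdkn1c correlated at r = 0.92, those of Plagl1 and Igf2r at 0.89 and those of Plagl1 and Peg3 at -0.95. Arrays share their time and preparation in such values, and any pair of genes that changes steadily with time correlates, so these are descriptions only.

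The promoters of 2 genes that rose and 2 that fell are shown because each has 1 start in the RefSeq promoter table (build GRCm38.p6). Each line gives the 250 bases before the start, 5′ to 3′ on the gene's strand, and capitals mark matches on either strand to GGGCGG (a GC box), CACGTG (an E-box), GGGGCCCC (a PLAGL1-type motif), TGACGTCA (a cAMP response element) or GCATGCGC (the core of an NRF1 motif). The motifs were picked after the data were seen.
Plagl1 promoter, chr10:13090582-13090831, plus strand: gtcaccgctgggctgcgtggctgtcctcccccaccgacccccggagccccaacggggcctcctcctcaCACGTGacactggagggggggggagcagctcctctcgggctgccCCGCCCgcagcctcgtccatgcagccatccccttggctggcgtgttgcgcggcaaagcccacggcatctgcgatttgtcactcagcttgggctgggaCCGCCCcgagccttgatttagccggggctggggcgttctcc
Igf2r promoter, chr17:12769707-12769956, minus strand: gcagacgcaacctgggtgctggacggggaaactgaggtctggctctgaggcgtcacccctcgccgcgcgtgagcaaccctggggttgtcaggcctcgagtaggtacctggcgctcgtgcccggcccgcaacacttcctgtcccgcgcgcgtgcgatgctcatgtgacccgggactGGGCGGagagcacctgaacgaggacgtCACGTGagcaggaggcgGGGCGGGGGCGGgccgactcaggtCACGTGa
Peg3 promoter, chr7:6730420-6730669, minus strand: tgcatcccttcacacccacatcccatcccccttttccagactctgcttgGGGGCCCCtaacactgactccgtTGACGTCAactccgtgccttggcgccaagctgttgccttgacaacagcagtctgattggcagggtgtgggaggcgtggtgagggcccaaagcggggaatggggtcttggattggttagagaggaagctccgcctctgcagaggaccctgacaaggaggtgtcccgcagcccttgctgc
Ndn promoter, chr7:62348027-62348276, plus strand: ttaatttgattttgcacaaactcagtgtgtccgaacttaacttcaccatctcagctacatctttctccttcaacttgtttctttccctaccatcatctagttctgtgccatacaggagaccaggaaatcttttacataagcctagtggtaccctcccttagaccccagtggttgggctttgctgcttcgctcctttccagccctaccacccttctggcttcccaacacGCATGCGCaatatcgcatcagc

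The Plagl1 window holds 19 CpG dinucleotides and the Igf2r window 27, against 8 in the Peg3 window and 5 in the Ndn window, where the median of 32851 promoter windows was 6 (quartiles 2 and 16). The 4 listed starts of Igf2, which also rose, have 6, 22, 10 and 1 CpG in their windows, and which start these cells use is not known. Cdkn1c had no entry in the promoter table. Whether CpG content goes with the direction of change was not tested. Plagl1 has 2 GC boxes and 1 E-box, and Igf2r has 3 GC boxes and 2 E-boxes. Peg3 and Ndn have no GC box in these windows, Peg3 holds 1 GGGGCCCC and 1 TGACGTCA, and Ndn holds 1 GCATGCGC, which starts 22 bases before the gene's start. No motif matches overlapped in these 4 windows. Of all windows, 32.7% hold GGGCGG, 6.02% CACGTG, 0.889% GGGGCCCC, 1.55% TGACGTCA and 2.26% GCATGCGC. Mest, which did not pass, also has a GC box in the window of each of its 3 listed starts. Igf2, which rose, has none in its windows with 10 and 1 CpG. A match is a description of the letters, and with 4 genes chosen for their response no difference in motif content was tested.

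At 12 and 24 h other imprinted genes moved in both directions, with a share near that of all genes. Of 62 further mouse genes described as imprinted in at least 1 tissue, 47 had a probe set of their own and 15 were tested. The other 32, among them Snrpn, Peg10, Sgce, Nnat, Dcn and Kcnq1, had signals of at most 131.6 on every array. At 24 h 3 of the 15 rose and 4 fell, or 46.7% against 48.1% of all genes, with a median log2 change of -0.08 against 0.04 for all genes. At 12 h 2 rose and 4 fell (40%, against 35.6% of all genes), and at 6 h 1 fell (6.67%, against 15.7% of all genes).

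Phlda2, a pleckstrin homology domain gene that restrains placental growth, had the largest fall of them. It was at 194 ± 51.9 at 24 h, against 672.2 ± 7.42 at 0 h, a log2 change of -1.66 ± 0.18 (adjusted p = 5.6e-05). Pon2, a lactonase, was at 158.4 ± 41.5 at 24 h, against 486.6 ± 152 at 0 h (-1.43 ± 0.22, adjusted p = 0.000529), and Tssc4 at 246.2 ± 11.1, against 415.6 ± 33.7 (-0.69 ± 0.15, adjusted p = 0.0044). Gnas, which encodes the stimulatory G protein alpha subunit, was at 8417 ± 1300 at 24 h and 11910 ± 373 at 0 h (-0.51 ± 0.18, adjusted p = 0.0363). The Gnas call did not hold without 24 h replicate 1, either 0 h array or the filter. The genes that rose at 24 h were Mcts2 (1.0 ± 0.17, adjusted p = 0.00076), Copg2, a coat protein subunit of COPI vesicles (0.72 ± 0.19, adjusted p = 0.0107), and H13, the signal peptide peptidase (0.54 ± 0.18, adjusted p = 0.032). Mcts2 is a retrotransposed copy of Mcts1 that lies inside H13, and its probe set may read the parent gene as well. The Copg2 call was lost without 0 h replicate 2 or 24 h replicate 1, and that of H13 without 0 h replicate 2, 24 h replicate 2 or the filter.

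Meg3 and Impact changed at earlier times. Meg3, the maternally expressed non-coding RNA beside Dlk1, had a mean of 192.4 at 12 h, against 82.5 at 0 h, a log2 change of 0.97 ± 0.28 (adjusted p = 0.0213) that lost its call without any 1 of the 0 or 12 h arrays or without the filter. At 6 h it had 181.8 and 176.2, against 85.1 and 79.9 at 0 h, a log2 change of 0.88 ± 0.28 (adjusted p = 0.0581) that was called with the replicate block (adjusted p = 0.0413), in the fit of only the 4 arrays compared and without either 24 h array. At 24 h its arrays spread widely (119 ± 76.2, log2 change 0.30, adjusted p = 0.405), and without 24 h replicate 2 the change was 0.84 (adjusted p = 0.00879). Impact, a regulator of the kinase GCN2, was at 295.6 at 6 h and 271.8 at 12 h, against 461.6 at 0 h, with log2 changes of -0.58 (adjusted p = 0.0404) and -0.69 (adjusted p = 0.00939). The 6 h call was lost under 10 of 17 alternatives and the 12 h call without 0 h replicate 2 or 12 h replicate 2.

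Beside Cdkn1c on the chromosome, Phlda2 and Tssc4 fell at 24 h and Nap1l4 was not called, while Trpm5, Kcnq1 and Slc22a18 were not tested. The neighbours were named after their values were seen. In the GRCm38.p6 gene order, Tssc4, Trpm5 and Kcnq1 lie on one side of Cdkn1c and Slc22a18, Phlda2 and Nap1l4 on the other. While Cdkn1c rose by 2.09 on the log2 scale at 24 h, Phlda2 fell by 1.66 and Tssc4 fell by 0.69, Nap1l4 was at 1471 against 1568 at 0 h (log2 change -0.08, adjusted p = 0.687), and the other 3 did not pass the filter. Beside Plagl1, the dystrophin-related gene Utrn (0.25, adjusted p = 0.224) and the splicing factor subunit Sf3b5 (0.35, adjusted p = 0.168) were not called, and Ltv1, a factor of small ribosomal subunit assembly, was at 357.8 at 24 h against 933.8 at 0 h (-1.31, adjusted p = 0.000228). Over the 3 nearest protein-coding genes on each side of each of the 10 genes, 54 in all without the 10 themselves, 12 were tested, of which 2 rose and 4 fell, where 48.1% of all genes passed, with a median log2 change of -0.06 against 0.04 for all genes.

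Genes described as being under PLAGL1 control gave a mixed picture. Of 8 such genes outside the imprinted set, 7 had a probe set and 4 were tested, of which 2 rose at 24 h (50%, against 48.1% of all genes) and 0 fell. Slc2a4, the insulin-responsive glucose transporter GLUT4, was at 186.4 ± 43.3 at 24 h, against 89.2 ± 28.8 at 0 h (0.86 ± 0.21, adjusted p = 0.00645), and its second probe set had a log2 change of 2.20. The Slc2a4 call was lost without 0 h replicate 1 or 24 h replicate 1. Socs3, a suppressor of cytokine signalling, was at 390.2 ± 86.5 at 24 h, against 196.5 ± 5.37 at 0 h (0.87 ± 0.18, adjusted p = 0.00271), while its second probe set, at 0.46, was not called. Apaf1, the apoptosome scaffold, was called higher at 6 h (0.80, adjusted p = 0.00875), a call lost without either 0 h array, while its second probe set, at 0.23, was not called. The transcription factor Tcf4 was not called at 24 h (-0.09, adjusted p = 0.684). Of the other PLAG family genes, Plagl2 was tested, with signals of 161.4 ± 22.9 at 24 h and 240 ± 12.9 at 0 h (-0.50, adjusted p = 0.142), a difference that was called in the fit of those 4 arrays alone (adjusted p = 0.0399) and when either 6 h array was left out (adjusted p = 0.0335). Its second probe set, at -0.48, was called at 24 h.

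Around the ligand Igf2 and its receptors, 6 of the 10 tested IGF signalling genes were called lower at 24 h. Of 22 such genes outside the imprinted set, 21 had a probe set and 10 were tested. At 24 h 6 fell and 1 rose (70%, against 48.1% of all genes, 23.5% being lower and 24.6% higher). The median log2 change was -0.75 against 0.04 for all genes. The list was chosen with earlier results of these data known, so nothing is read from its counts. The binding proteins Igfbp7 (1357 ± 69.2 at 24 h, against 2935 ± 380 at 0 h, log2 change -1.09 ± 0.20, adjusted p = 0.00123) and Igfbp3 (-0.94 ± 0.20, adjusted p = 0.00281) fell. So did the genes of the RNA-binding proteins that bind Igf2 messenger RNA, Igf2bp3 (462 ± 33.7 at 24 h, against 873.8 ± 43.5 at 0 h, log2 change -0.88 ± 0.15, adjusted p = 0.000972) and Igf2bp1 (-0.71 ± 0.15, adjusted p = 0.00307). The second Igf2bp3 probe set, at -0.48, was not called. The receptor substrate Irs1 was at 2478 ± 938 at 24 h, against 4497 ± 1350 at 0 h (-0.87 ± 0.27, adjusted p = 0.0201), and the adaptor Grb7 at 705.2 ± 232, against 1204 ± 96.2 (-0.78 ± 0.22, adjusted p = 0.0135). Irs1 and Grb7 lost the call without 0 h replicate 1 or 24 h replicate 2, and Irs1 also without the filter. The adaptor Grb2 rose (0.72 ± 0.16, adjusted p = 0.00433), while the receptor gene Igf1r was not called (-0.30 ± 0.17, adjusted p = 0.166), nor were M6pr and Ide.

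At 12 and 24 h, factors that set or keep imprints were lower or not called. Of 15 such genes, 13 had a probe set and 9 were tested. This list too was chosen with earlier results of these data known, so nothing is read from its counts. At 24 h 6 fell and 0 rose (66.7%, against 48.1% of all genes, 23.5% being lower), with a median log2 change of -0.48. At 12 h 5 fell and 0 rose, where 35.6% of all genes passed and 17.5% were lower. Of those 5, Trim28 lost its 12 h call without 0 h replicate 1, 12 h replicate 2 or the filter. The histone methyltransferase gene Ehmt2 was at 1357 ± 91.5 at 12 h and 1890 ± 92.1 at 0 h (-0.47 ± 0.16, adjusted p = 0.0374). Ehmt2 lost its call without any 1 of the 0 or 12 h arrays, without the filter and in the fit of only the 4 arrays compared. Its second probe set, at -0.23, was not called at 12 h. Dnmt3a lost its 12 h call without 12 h replicate 1, either 0 h array or the filter. It also lost it with 64 added in place of 32 and with trend and robust eBayes. Hells, a chromatin remodeller needed for DNA methylation, was at 74.45 ± 31.7 at 24 h, against 642.8 ± 28.2 at 0 h (-2.70 ± 0.23, adjusted p = 1.2e-05). Trim28, the co-repressor that holds imprints with KRAB zinc finger proteins, was at 1272 ± 262, against 2975 ± 710 (-1.20 ± 0.21, adjusted p = 0.0011), and Uhrf1, which guides Dnmt1 to newly copied DNA, at 292.2 ± 32.4, against 661.1 ± 127 (-1.09 ± 0.19, adjusted p = 0.00107). Ctcf, the insulator protein of the Igf2 and H19 locus, had fallen by 6 h, to 252.3, against 626 at 0 h (-1.22, adjusted p = 0.0024), where its second probe set, at -0.63, was not called. It was at 277.4 ± 40.1 at 24 h (-1.09 ± 0.18, adjusted p = 0.00081), and both probe sets were called. Dnmt1, the maintenance DNA methyltransferase, was at 700.3 ± 46.6 at 24 h and 984 ± 20 at 0 h (-0.47 ± 0.15, adjusted p = 0.0237), a call lost without either 0 h array, without 24 h replicate 1 or without the filter. The second Dnmt1 probe set, at -0.33, was not called. Dnmt3a, a de novo methyltransferase, had an adjusted p of 0.049 and lost the call under 12 of 16 alternatives. Arid4b, a chromatin gene of imprinting control, had 278 ± 42.1 at 6 h and 175.6 ± 3.32 at 0 h (0.57 ± 0.18, adjusted p = 0.053), and was called with the replicate block (adjusted p = 0.0204) and with the stricter filter (adjusted p = 0.0416). No DNA methylation was measured.

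**Figure D3:**
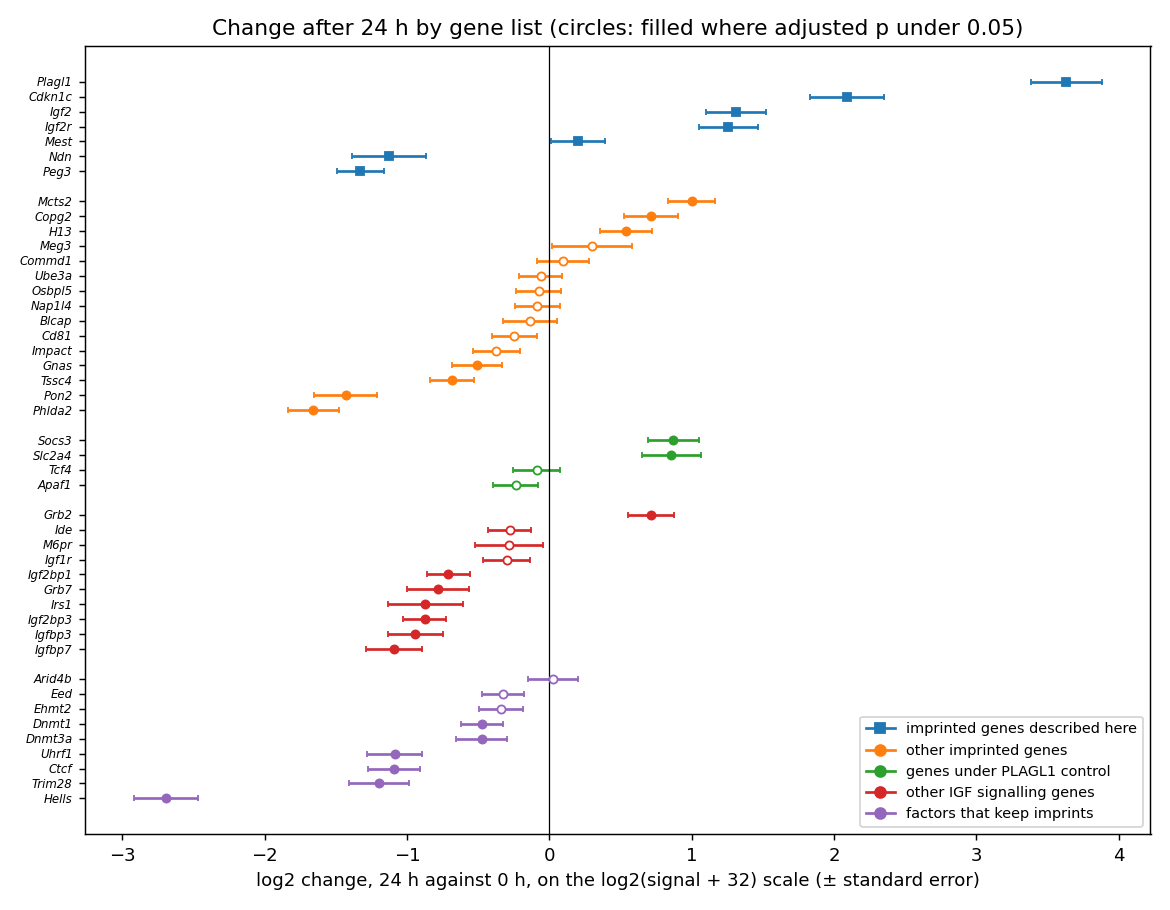
Log2 change at 24 h against 0 h (log2(signal + 32) scale, bars are the standard error) of the 7 tested imprinted genes (squares, shown without a test) and of the tested genes of 4 other lists (circles, filled where the adjusted p is under 0.05). Plagl1 is at 3.63 and Cdkn1c at 2.09, while the 15 other imprinted genes spread from -1.66 (Phlda2) to 1.0 (Mcts2).

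The genes whose pattern over the 8 arrays was most like that of Plagl1, by Pearson's r of log2(signal + 32) among all tested genes, were H2-K1, a class I antigen-presenting molecule (r = 0.994), Tmbim4 (0.993), the clathrin adaptor subunit Ap2s1 (0.993), Ltn1, a ubiquitin ligase of stalled ribosomes (0.991), and Skap2 (0.989). H2-K1 was at 5669 at 24 h, against 450.4 at 0 h. For Cdkn1c they were the secreted lectin Clec11a (0.996), the complex I subunit Ndufv1 (0.985), the alanine aminotransferase Gpt (0.982), the chemokine Ccl20 (0.974) and Napa (0.972). Clec11a was at 282.1 at 24 h, against 83 at 0 h. A value above 0.95 was reached by 183 tested genes with Plagl1 and by 43 with Cdkn1c.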

How the data were processed

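Phycoerythrin-labelled RNA was read on the Affymetrix 430A mouse array, per the labels and the series' design text. The deposited table holds a linear intensity (signal) for each of 22690 probe sets on 8 arrays; the sources used here give no summarising software. Each array had a 2% trimmed mean of 500.2, so the deposited intensities were already scaled, and they were used as deposited. Median signals were 140.1 to 152.8, and 21.2% to 26.4% of signals lay below 32. The number of arrays, 2 per time, limits the precision.

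Genes were named from the platform annotation where a probe set has 1 gene (20380 probe sets; 691 had several genes), with symbols checked against RefSeq GRCm38.p6 (0 changed). The 64 control probe sets were left out. The filter kept 11505 probe sets. Where several of them named a gene, the one of highest mean signal stood for it, giving 7340 genes. log2(signal + 32) of all 8 arrays was fitted in limma 3.58.1 (R 4.3.3) with lmFit and eBayes (residual df 4, prior df 6.37), with Benjamini-Hochberg adjustment over the 7340 genes in each comparison. Values of other probe sets of a gene come from a fit of the 11505. The fit was tested on simulated data.

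The members and lists were chosen with earlier results of these data known. The text names all 10 members, the called genes of each list, and the 5 genes most like Plagl1 and Cdkn1c; uncalled list members and chromosomal neighbours were named after their values were seen. The main fit did not pair arrays. Only in the replicate block, an alternative, were replicate numbers taken to pair them. The difference between replicates 1 and 2 correlated between times at r = 0.125 to 0.382 in all 6 pairs of times. This pairing was found in the data, since no label gives one. The 2 arrays of a time correlated at r = 0.975 to 0.99 over probe sets. Alternatives were other pseudocounts (16, 64), filters, quantile normalization, all probe sets, the replicate block, trend and robust eBayes, only the arrays compared, and leaving out each array.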

Additional observations from a re-analysis of the deposited data

How the results depend on the processing

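The 24 h calls of Plagl1, Cdkn1c, Igf2, Igf2r, Peg3 and Ndn held under every alternative that gave a value (16 for Plagl1, Cdkn1c and Igf2, which did not pass the stricter filter, and 17 for the others), though the genes were chosen on these values and this lends them no support. Over all 5 comparisons, 58 of 580 recomputed values of the 7 tested members lost a call, 0 gained one and 0 changed direction with a call. The fit with the replicate block changed no call of a member. It raised the genes called to 581 (306 without it) for 12 h against 6 h and to 626 (396 without it) for 24 h against 12 h, and the other imprinted genes called to 3 (1 without it) for 6 h against 0 h and to 2 (0 without it) for 12 h against 6 h. In limma, 0 of 15 other imprinted genes were called in the step of 12 h against 6 h, where 4.17% of all genes were. The same count was 0 in the step of 24 h against 12 h, where 5.4% of all genes were called. An unadjusted p under 0.05 was reached by 4 and 5 of the 15 in these steps. The share of all genes that reached it was not computed, so nothing is read from these counts. For the genes of the other lists, 104 of 2070 recomputed values lost a call and 13 gained one; these repeats were chosen after seeing the data.

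With no filter, the genes called were 430 (of 1155 with it) for 6 h against 0 h, 1 (of 306) for 12 h against 6 h and 117 (of 396) for 24 h against 12 h, and 1 other imprinted gene (0 with it) was called for 24 h against 12 h. With all named probe sets, 0 other imprinted genes were called for 6 h against 0 h. With only the 4 arrays compared, 46 genes were called for 12 h against 6 h. Leaving out each array in turn, the genes called ranged from 482 to 1069 for 6 h against 0 h, 1718 to 2662 for 12 h, 2641 to 3582 for 24 h, 37 to 214 for 12 h against 6 h and 105 to 406 for 24 h against 12 h. The other imprinted genes called ranged from 0 to 1, 2 to 6 and 4 to 7 against 0 h, 0 to 0 for 12 h against 6 h, and 0 to 1 for 24 h against 12 h. The arrays whose absence moved the genes called by over 1.5 times were all 4 of the 0 and 6 h arrays for 6 h (482 to 658 genes), both 0 h arrays and 12 h replicate 2 for 12 h (1718 to 1732), and, for the later steps, the 0, 6 and 12 h arrays (37 to 190) and the 12 and 24 h arrays (105 to 209). Of the other imprinted genes, leaving out 0 h replicate 2 left 3 called at 12 h and 4 at 24 h, and leaving out 12 h replicate 2 left 2 called at 12 h. Where an array was left out, its time had a lone array that was assumed to vary like the other times, and fewer arrays entered the fit. For the other alternatives the cause was not tested. Signals near or below 32 limit what can be seen of Dlk1, Grb10 and the 0 h levels of Plagl1 and Cdkn1c.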
